A study of Mus musculus with 6 samples.

Results

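Long noncoding RNAs (lncRNAs) are RNAs well over the length of small RNAs that are not known to be translated into a protein. Some stay in the nucleus, where they scaffold nuclear bodies or act on neighbouring genes, and others are spliced only to release small nucleolar RNAs (snoRNAs) or microRNAs from their introns. In liver, many are named only by a clone or model number, lie next to genes for metabolic enzymes or hepatocyte transcription factors, and have no described role.

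The lncRNA genes described here were chosen by their measured level. Gene identifiers of the liver count table were matched to a GENCODE annotation of the GRCm39 mouse genome, and a gene was kept if it was annotated as lncRNA and had a mean of at least 3 CPM, its count scaled to a library total of 1e+06, over all 6 libraries. Of 9657 lncRNA genes in the table, 6299 had 0 counts in every library and 170 met the rule, so the upper limit of 300 genes was not reached. All 170 passed the filter on low counts and were among the 14433 genes of all types that were tested. As their level was the ground for selection, the levels given are a description. At the limit, the last genes kept were Gm49980 with 3.06 CPM, Gm30784 with 3.02 CPM and Gm27252 with 3.01 CPM, and the first left out were Gm17634 with 2.99 CPM, Gm16348 with 2.99 CPM and 3110056K07Rik with 2.97 CPM.

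The livers came from male wild-type C57BL6/J mice of 8 to 9 weeks that were gavaged for 7 days with esculetin, a coumarin derivative, or with its vehicle, 2.5% Tween-80. All mice ate a control diet with 10% of energy from fat for 4 days and then a high-fat diet (HFD) with 60% for 3 days, so no library shows the liver without the HFD. Each group had 3 libraries, and each library pooled the RNA of 2 mice. The labels disagree on the dose, with 180 mg/kg per day in the sample titles, the protocol and the column names of the count table and 90 mg/kg per day in the treatment field, so the groups are called esculetin and vehicle here. Total counts per library lay between 27957713 and 34920922, and the 170 lncRNA genes held 0.285% to 0.341% of them. Their summed level was 3052, 3334 and 3071 CPM in the vehicle libraries and 2923, 2865 and 3305 CPM in the esculetin libraries, and the groups overlapped.

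Fixed lists of cell markers gave the cell types of the tissue. Hepatocyte markers summed to between 84221 and 87399 CPM with vehicle and between 80069 and 89187 CPM with esculetin, and no pancreatic marker had a count. Kupffer cell markers summed to 261 to 356 CPM against 272 to 280 CPM. Endothelial markers summed to 143 to 179 CPM against 154 to 177 CPM, stellate cell markers to 279 to 321 CPM against 254 to 335 CPM, and erythroid markers to 123 to 148 CPM against 109.8 to 166 CPM. Of the 5 stellate cell markers 2 were higher in mean, and the median log2 fold change was -0.10. Des, a small part of that sum, was called higher from 1.83 to 2.95 CPM. The B cell, T cell, neutrophil and adipocyte lists summed to at most 4.35 CPM in any library, and the neutrophil marker Ly6g had no count. The cholangiocyte list stood at 39.5 to 80.4 CPM with vehicle and 30.3 to 45.7 CPM with esculetin, but most of this sum was Spp1, which was called lower from 56.0 to 33.4 CPM. The other 4 of its 5 markers were higher in mean, and the median log2 fold change of the list was 0.24. In bulk tissue, fewer cells of a type and less RNA per cell cannot be told apart. The part of cell makeup in the lncRNA values below was not tested.

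Liver lncRNA levels were uneven. Malat1, which localises to nuclear speckles, was the most abundant by CPM and held 11.1% of the summed level of the 170 genes, and the first 12 genes together held 50.2%. Only 6 genes reached 100 CPM and 52 reached 10 CPM, while the median gene had 6.53 CPM. A symbol of the Gm or Rik type, given to genes with no described function, was carried by 127 of the 170.

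**Figure D1:**
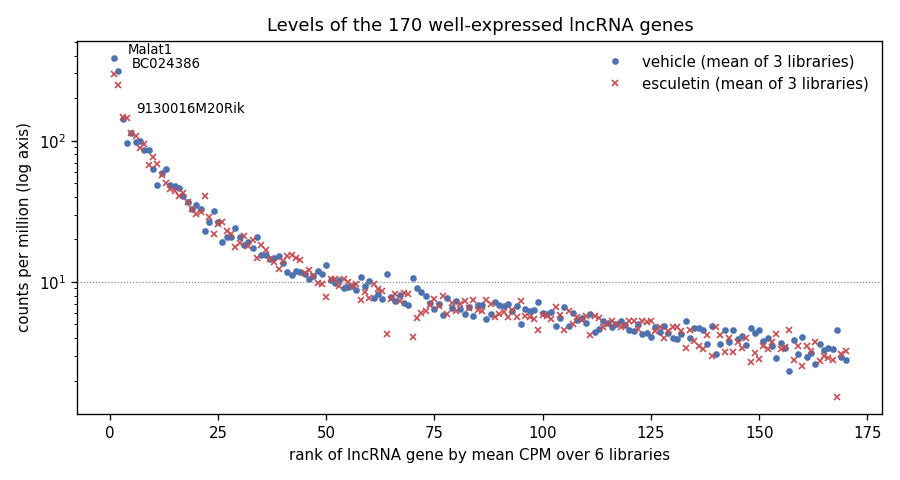
Mean CPM of each of the 170 lncRNA genes (vertical log axis) against its rank by the mean of 6 libraries (horizontal axis), with vehicle means as dots and esculetin means as crosses, 3 libraries each. The dotted line marks 10 CPM, which 52 genes reached, and the level falls from Malat1 at rank 1 to just above 3 CPM at rank 170.

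The 12 most abundant genes were Malat1, BC024386, 9130016M20Rik, AW112010, Norad, Neat1, Oip5os1, 0610005C13Rik, Gm31583, Gas5, B630019A10Rik and Gm20319. The order changes once length is taken into account. Per kilobase of the canonical transcript, the level was 267 CPM for AW112010, an RNA of immune cells with a short translated frame, and 243 CPM for BC024386. Gm20319 followed with 111 CPM per kilobase and the snoRNA host Gas5 with 104 CPM per kilobase. Malat1 was at place 10 with 43.4 CPM per kilobase, and Neat1, the long scaffold of paraspeckles, was at place 95 with 4.60 CPM per kilobase. The counts are of the whole gene and the length is that of 1 transcript, 22397 bases for Neat1, so these places depend on the transcript chosen. Counting in the sources used here is not stated to use strand, so reads from overlapping genes on opposite strands cannot be told apart. Exon bases were shared with another annotated gene in 135 of the 170 genes, and bases of the canonical transcript's exons in 88.

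Between the groups, few of the lncRNA genes differed. A gene was called when the unadjusted p of edgeR's quasi-likelihood test was under 0.05 and the fold change was over 1.5. By this rule 9 of 170 lncRNA genes (5.29%) were called, against 3.13% of all genes tested and 1.5% of the protein-coding genes with a mean of at least 3 CPM. Higher with esculetin were 2 (1.18%, against 1.37% of all genes tested), Hnf4aos and Gm17066. Lower were 7 (4.12%, against 1.76%), namely Gm45792, Gm49980, Snhg14, Gm29966, Gm15883, 4632404H12Rik and A930033H14Rik. None of the 170 had a Benjamini-Hochberg adjusted p under 0.05 in this edgeR test, where the smallest was 0.136. Among the called genes, Hnf4aos in the vehicle group and Gm49980, Snhg14 and 4632404H12Rik in the esculetin group had a group mean under 3 CPM, so these met the level rule through the group where they were higher. The count at an unadjusted p under 0.05 was 31 (18.2%, against 11.9%), of which 10 were higher and 21 lower, and with DESeq2 the adjusted p of 6 passed, those of Hnf4aos, Gm45792, Gm49980, AW112010, B630019A10Rik and 4732465J04Rik. Leaving out 1 library gave between 7 and 22 called genes, with 19 without the third vehicle library and 22 without the third esculetin library. The split by direction moved too. It was 4 higher and 18 lower without the third esculetin library, 7 and 12 without the third vehicle library, and 3 and 4 without the second vehicle library. With the level limit at 1 CPM it was 10 higher and 11 lower.

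The median log2 fold change of the 170 genes was -0.01, as was that of all genes tested, and 82 genes were higher and 88 lower. The change was under 1.2-fold in either direction for 102 genes. The 3 esculetin libraries did not overlap the 3 vehicle libraries in 25 lncRNA genes (14.7%, against 17.4% of all genes tested), 9 higher and 16 lower. All 9 called genes had a mean between 3 and 10 CPM, a range that held 118 of the 170. In that range 7.63% of lncRNA genes were called against 2.2% of protein-coding genes, and at 10 CPM and over 0 of 52 lncRNA genes were called against 1.24% of protein-coding genes, while 13 of those 52 (25%) had an unadjusted p under 0.05 in edgeR, against 15.7% of protein-coding genes. The lncRNA genes also varied more between libraries of a group. Within 3 to 10 CPM, the median SD of log2 CPM within groups was 0.26 for lncRNA genes and 0.20 for protein-coding genes, and at 10 CPM and over it was 0.20 and 0.12. These shares and medians describe the sets and were not tested against each other.

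**Figure D2:**
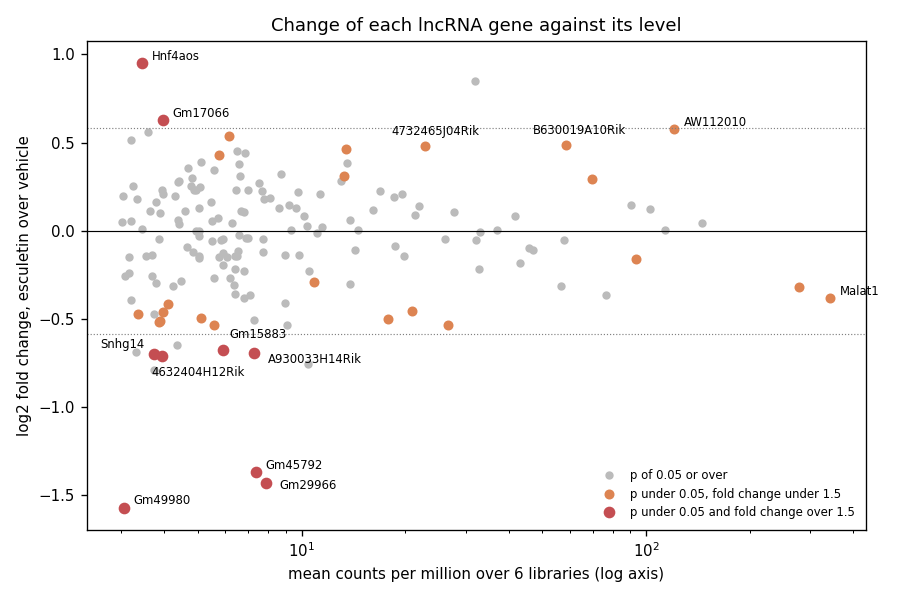
Log2 fold change of esculetin over vehicle (vertical axis) against mean CPM over 6 libraries (horizontal log axis) for the 170 lncRNA genes, with called genes in red and genes with p under 0.05 but a smaller change in orange. Dotted lines mark a change of 1.5-fold, and the 9 red points lie to the left of 10 CPM.

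The called gene with the largest increase was Hnf4aos (ENSMUSG00000046840, GRCm39 chromosome 2, 163325137 to 163383642, minus strand). It is transcribed on the strand opposite Hnf4a, which encodes a nuclear receptor central to hepatocyte identity. Its exons share no base with exons of another gene. The RefSeq start of Hnf4aos lies 1 base from the annotated start of its canonical transcript, and the window from 250 bases before to 50 bases after it is printed because this gene led the increases. The window, at chr2:163383592-163383891 of GRCm39 on the minus strand, was searched on both strands for 4 motifs fixed for this work, whose letters would stand in capitals. They were TTGCNNAA of C/EBP factors, GCGTG of the dioxin response element, TGACNNNGC of the antioxidant response element and TATAAA of the TATA box, and none of these letters occurred.
Hnf4aos: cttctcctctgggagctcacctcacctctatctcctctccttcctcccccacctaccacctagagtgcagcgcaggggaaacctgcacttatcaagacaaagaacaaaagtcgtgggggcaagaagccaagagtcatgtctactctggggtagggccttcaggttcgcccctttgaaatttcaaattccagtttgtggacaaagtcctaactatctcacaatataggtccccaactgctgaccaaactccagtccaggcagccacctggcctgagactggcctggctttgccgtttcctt

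Hnf4aos was at 2.79, 1.99 and 2.26 CPM in the vehicle libraries and at 3.67, 4.67 and 5.29 CPM in the esculetin libraries. The groups were apart, with all 3 esculetin values above all 3 vehicle values. The means were 2.35 ± 0.41 CPM and 4.54 ± 0.82 CPM (SD, n = 3 each), a log2 fold change of 0.95 ± 0.21 (SE) with an unadjusted p of 0.00133 and an adjusted p of 0.155 in edgeR. It was called in all 6 fits that left out 1 library, where the log2 fold change lay between 0.83 and 1.10. Hnf4a itself was at 502 CPM with vehicle and 544 CPM with esculetin, a log2 fold change of 0.11 ± 0.11 (unadjusted p = 0.332 in edgeR).

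Gm17066 (chromosome 14, 105346826 to 105352112, minus strand) was called higher, but its groups overlapped. It was at 2.25, 2.85 and 4.23 CPM with vehicle and 5.44, 5.25 and 3.70 CPM with esculetin, a log2 fold change of 0.63 ± 0.25 (SE). The third vehicle library was above the third esculetin library. The gene lies on the same strand as Rbm26, an RNA-binding protein gene, with which it shares 557 bases of canonical exons, and Rbm26 had a log2 fold change of 0.02 ± 0.08. It was called in 2 of 6 fits without 1 library.

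Of the called genes that were lower, Gm45792 (ENSMUSG00000108884, chromosome 7, 119225742 to 119230281, minus strand) had the smallest p. It overlaps Acsm1, a medium-chain acyl-CoA synthetase gene of liver mitochondria, on the opposite strand. Its level was 6.78, 14.8 and 10.3 CPM with vehicle and 2.30, 5.02 and 4.99 CPM with esculetin. The groups did not overlap, although the vehicle libraries differed by over a factor of 2 among themselves. It was 2.59-fold lower with esculetin, a log2 fold change of -1.37 ± 0.33 (SE) with an unadjusted p of 0.00208 and an adjusted p of 0.174 in edgeR. Acsm1 had a higher mean but was not called, at 434 CPM against 373 CPM (log2 fold change 0.22 ± 0.08, unadjusted p = 0.0289 in edgeR). Another of the 170 genes, Gm39079, spans Gm45792 on the same strand (119206904 to 119242692), and its log2 fold change was 0.23 ± 0.17.

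Gm49980 (chromosome 18, 30400111 to 30405186, plus strand) had the largest decrease of the 170 and the lowest level of the called genes. Its mean over all libraries, 3.06 CPM, was at the limit for inclusion, which it met through the vehicle group, where it was higher. It was at 5.48, 3.19 and 5.03 CPM with vehicle and 0.497, 1.99 and 2.09 CPM with esculetin, from 16 counts in the lowest library. All esculetin values lay below all vehicle values. The log2 fold change was -1.57 ± 0.43 (SE), with an adjusted p of 0.225 in edgeR. Pik3c3, which encodes a lipid kinase of autophagy and lies 605 bases away, had a log2 fold change of 0.04 ± 0.13.

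Snhg14 (chromosome 7, 58957672 to 59628040, minus strand) is the long host transcript of the imprinted Prader-Willi region, whose introns carry repeated snoRNA genes and whose far end runs antisense to Ube3a. The annotation places 208 snoRNA genes inside it on its strand. It was at 5.55, 4.14 and 4.12 CPM with vehicle and 3.11, 3.00 and 2.39 CPM with esculetin. The groups did not overlap, and the log2 fold change was -0.70 ± 0.20 (SE, unadjusted p = 0.00585 and adjusted p = 0.238 in edgeR). Gm38393, the nearest protein-coding gene by the annotation, was under 1 CPM in both groups.

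4632404H12Rik (chromosome 3, 89674818 to 89680700, minus strand) overlaps Ube2q1, a ubiquitin-conjugating enzyme gene, on the opposite strand. It was at 5.35, 5.55 and 3.72 CPM with vehicle and 1.99, 3.29 and 3.67 CPM with esculetin. The third libraries of the groups nearly met. The log2 fold change was -0.71 ± 0.25 (SE, adjusted p = 0.320 in edgeR), and it was called in 3 of 6 fits without 1 library. Ube2q1 had a log2 fold change of -0.02 ± 0.08.

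The RefSeq start windows of both genes with an entry are shown as the counterpart to that of Hnf4aos, with the GCGTG letters, or their reverse complement, in capitals. The window of Snhg14, at chr7:60099876-60100175 of GRCm39 on the minus strand, belongs to an upstream start 471885 bases from the start of the annotated canonical transcript. It holds the letters on both strands, at 65 and 58 bases before the start. That of 4632404H12Rik, at chr3:89680658-89680957 on the minus strand, lies 7 bases from the annotated start and holds the letters 33 bases after it. The sequences differ in base composition, with 45.0% G and C and 2 CpG dinucleotides in Snhg14 against 77.3% and 45 in 4632404H12Rik.
Snhg14: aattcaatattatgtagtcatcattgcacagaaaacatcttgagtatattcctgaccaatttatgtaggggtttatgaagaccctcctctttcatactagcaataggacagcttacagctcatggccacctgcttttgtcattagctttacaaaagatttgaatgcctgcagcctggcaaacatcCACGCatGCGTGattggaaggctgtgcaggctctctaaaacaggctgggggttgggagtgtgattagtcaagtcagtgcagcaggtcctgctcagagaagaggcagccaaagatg
4632404H12Rik: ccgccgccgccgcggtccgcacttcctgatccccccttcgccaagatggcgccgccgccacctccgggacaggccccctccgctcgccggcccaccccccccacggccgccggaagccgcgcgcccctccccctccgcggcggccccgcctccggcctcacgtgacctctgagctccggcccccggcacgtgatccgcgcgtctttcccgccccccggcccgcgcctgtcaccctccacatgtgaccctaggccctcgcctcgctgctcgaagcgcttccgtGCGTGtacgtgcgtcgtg

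RefSeq windows were found for 116 of the 170 lncRNA genes, 165 windows in all as some genes have several starts. The GCGTG letters were in 26.7% of them, against 32.4% of all 32851 windows. The TTGCNNAA letters were in 27.3% against 10.8%, the TGACNNNGC letters in 22.4% against 12.4%, and TATAAA in 21.8% against 13.6%. Windows of the same gene can overlap and hold the same match, so they are not independent. The lncRNA windows were not matched to all windows for base composition, and the shares were not tested against each other. Such matches describe letters and are not binding sites.

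The other called genes had groups that overlapped, and they are named because the counts above rest on them. Gm29966 (chromosome 18, 65377324 to 65385692, plus strand) has a canonical exon that contains Mir122, the gene of the most abundant hepatocyte microRNA. It was at 17.2, 13.1 and 4.19 CPM with vehicle and 2.80, 4.70 and 5.29 CPM with esculetin. The third vehicle library lay within the esculetin range. The log2 fold change was -1.43 ± 0.43 (SE, adjusted p = 0.252 in edgeR), and it was called in all 6 fits without 1 library, where the value lay between -1.82, without that library, and -1.02.

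Gm15883 (chromosome 7, 26823885 to 26830107, minus strand) lies opposite Cyp2f2, a cytochrome P450 gene with 837 CPM in the vehicle group. It was at 5.24, 8.93 and 7.59 CPM with vehicle and 4.20, 4.06 and 5.37 CPM with esculetin (log2 fold change -0.68 ± 0.21, SE), and was not called without the second vehicle library. A930033H14Rik (chromosome 10, 69045592 to 69048928, minus strand), opposite Rhobtb1, was at 9.23, 12.4 and 5.40 CPM with vehicle and 7.00, 3.89 and 5.85 CPM with esculetin. Its log2 fold change was -0.70 ± 0.30 (SE), and it was called in 2 of 6 fits without 1 library and not with limma-voom (unadjusted p = 0.0529).

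**Figure D3:**
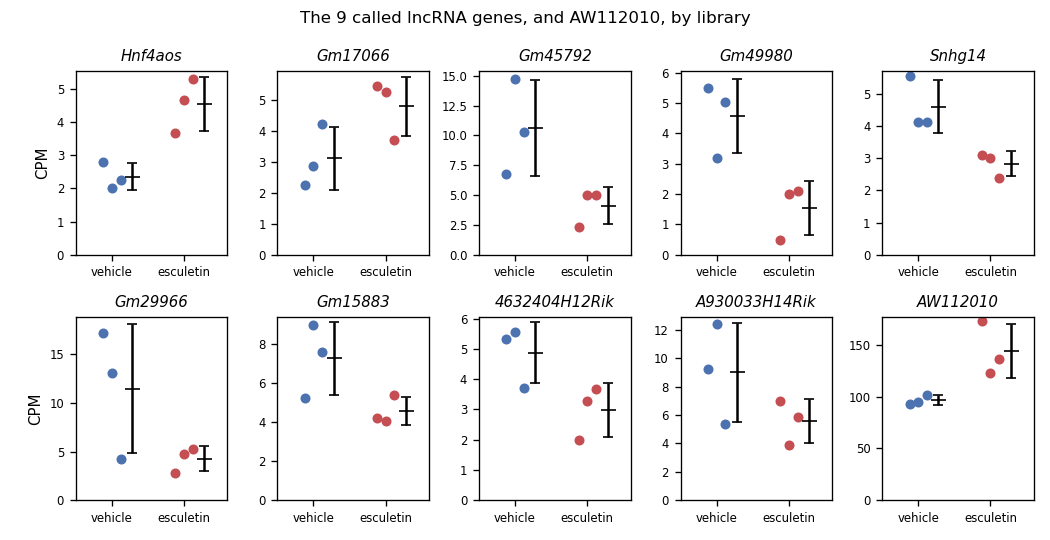
CPM (vertical axes from 0, scaled per gene) of the 9 called lncRNA genes and AW112010 in each of 3 vehicle and 3 esculetin libraries, with points for libraries and black bars for the mean and SD. The groups do not overlap in Hnf4aos, Gm45792, Gm49980, Snhg14, 4632404H12Rik and AW112010, and they overlap in the other 4.

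Among genes with a smaller change, 3 abundant ones had the lowest p-values of all 170, and they are described because they stood out on inspection, save for AW112010 and B630019A10Rik, which are also among the 12 most abundant. AW112010 was at 92.5, 95.1 and 102 CPM with vehicle and 173, 123 and 136 CPM with esculetin. Its groups were well apart, and its log2 fold change of 0.58 ± 0.12 (SE, unadjusted p = 0.000768 and adjusted p = 0.136 in edgeR) was a fold of 1.49, just under the threshold. Without 1 library it lay between 0.42 and 0.68, and AW112010 was then called in 3 of 6 fits. Of the immune cell markers, S100a9 was called higher from 0.813 to 1.61 CPM and Cd79a from 0.384 to 0.835 CPM, and the groups of both overlapped. Higher in mean were 2 of 3 B cell markers, 2 of 2 tested neutrophil markers, 1 of 2 tested T cell markers and 1 of 6 Kupffer cell markers. The median log2 fold change of the Kupffer cell list was -0.10. None of its 6 markers and neither tested T cell marker had a p under 0.05. The part of these cells in the AW112010 values was not tested.

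B630019A10Rik, beside St6gal1, was at 51.5, 47.0 and 48.3 CPM with vehicle and 63.1, 63.1 and 79.2 CPM with esculetin. All esculetin libraries were higher, and the log2 fold change was 0.48 ± 0.10 (SE, adjusted p = 0.136 in edgeR). 4732465J04Rik, an intergenic gene on chromosome 10, was at 17.6, 19.8 and 19.7 CPM with vehicle and 24.1, 27.4 and 28.2 CPM with esculetin, a log2 fold change of 0.48 ± 0.10 (SE, adjusted p = 0.136 in edgeR). The p of AW112010, B630019A10Rik and 4732465J04Rik stayed under 0.05 in all 6 fits without 1 library, and their adjusted p passed with DESeq2.

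Of the other most abundant genes, Malat1 was at 317, 439 and 407 CPM with vehicle and 282, 273 and 338 CPM with esculetin. The first vehicle library was below the third esculetin library. Its log2 fold change was -0.38 ± 0.13 (SE, unadjusted p = 0.0145 and adjusted p = 0.293 in edgeR), under the fold threshold. BC024386 had a log2 fold change of -0.32 ± 0.14 and Oip5os1, also known as Cyrano, which pairs with a microRNA, one of -0.16 ± 0.07.

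Norad, which binds Pumilio proteins, was nearly level at 114 ± 2.27 CPM with vehicle and 114 ± 6.58 CPM with esculetin (SD, n = 3 each). Neat1 was at 98.6 ± 15.4 CPM and 107 ± 14.1 CPM. Gm31583 spread most of these genes, from 38.7 to 113 CPM among the vehicle libraries alone, and its log2 fold change was -0.36 ± 0.32. The others with a p of 0.05 or over, 9130016M20Rik, 0610005C13Rik and Gm20319, had log2 fold changes of 0.05 ± 0.11, 0.15 ± 0.07 and -0.05 ± 0.08.

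A fold change over 1.5 was reached by 14 genes, and 5 of these had a p of 0.05 or over. They were Gm42047, Gm15690, Gm38416, B430219N15Rik and Gm16559, named for this property after their values were seen. In Gm42047, the vehicle libraries were at 29.9, 3.71 and 34.7 CPM and the esculetin libraries at 21.0, 41.6 and 59.9 CPM. The second vehicle library was far below all others, and the log2 fold change of 0.85 had an SE of 0.61.

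The fixed lists of lncRNAs, made by a described role or by symbol, held 30 of the 170 genes. The first was that of snoRNA hosts. Many, though not all, release guides for chemical marking of ribosomal RNA from their introns, and the spliced RNAs of many are degraded by nonsense-mediated decay. Of 21 hosts listed, 11 were among the 170 genes, and 9 of these had a higher mean with esculetin and 2 a lower one. Called were 0 higher and 1 lower, Snhg14, and with p under 0.05 alone there were 2 higher, Gas5 and Snhg6, and 1 lower, beside 3.13% called and 11.9% with p under 0.05 over all genes tested. None of the 9 that were higher in mean was called. The median log2 fold change of the 11 was 0.29, beside -0.01 over all genes tested. Over the 17 hosts on the list that were tested, at any level, it was 0.25. Snhg11, a listed host under the limit for inclusion at 2.75 CPM, had a log2 fold change of 0.70 ± 0.29 (SE, unadjusted p = 0.0359 in edgeR). This is within the rule for a call as higher, but its groups overlapped.

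Gas5 was at 59.1, 62.9 and 65.9 CPM with vehicle and 79.1, 76.8 and 74.3 CPM with esculetin. The groups were clearly apart and tight, with a log2 fold change of 0.29 ± 0.07 (SE, unadjusted p = 0.00290 and adjusted p = 0.203 in edgeR), a fold of 1.23. Its canonical exons share bases with those of Zbtb37 on the other strand. Snhg6 was at 5.72, 4.82 and 4.16 CPM with vehicle and 6.75, 5.45 and 7.61 CPM with esculetin, and the first vehicle library was above the second esculetin library. The log2 fold change of Snhg6 was 0.43 ± 0.18.

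Hosts with a p of 0.05 or over had log2 fold changes of 0.32 ± 0.19 for Snhg1, 0.27 ± 0.18 for Zfas1, 0.14 ± 0.12 for Snhg8 and 0.11 ± 0.17 for Snhg12. Snhg5, Snhg17 and Epb41l4aos had positive values and Snhg20 was nearly level. The annotation adds 3 genes that hold a snoRNA gene on their strand and were not on the list, 2410006H16Rik, 1110038B12Rik and AI506816, with log2 fold changes of 0.44 ± 0.22, 0.06 ± 0.16 and -0.26 ± 0.26, each with a p of 0.05 or over.

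**Figure D4:**
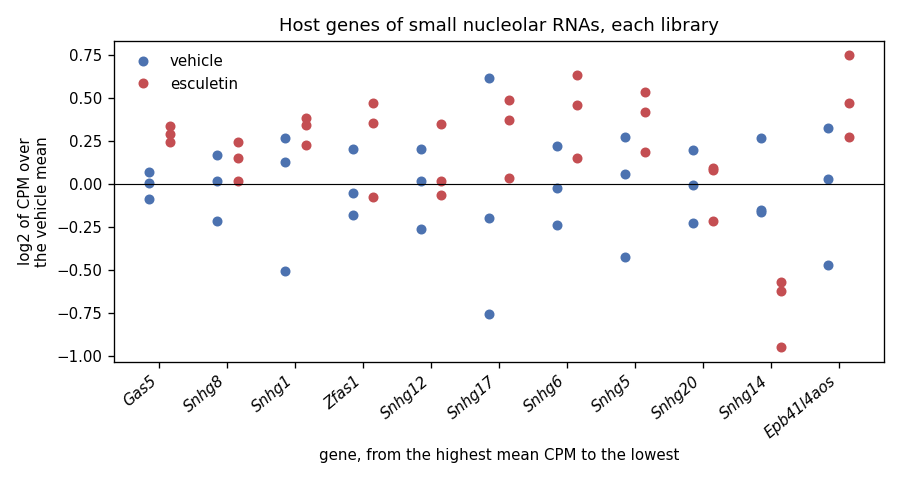
Log2 of CPM over the vehicle mean (vertical axis) for the 11 snoRNA host genes in order of level (horizontal axis), with a point for each of 3 vehicle (blue) and 3 esculetin (red) libraries. The groups do not overlap in Gas5, where esculetin was higher, and in Snhg14, where it was lower, and overlap in the other 9.

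Many snoRNA hosts start with a run of pyrimidines, a feature they share with genes of the translation machinery. The first 20 bases at the RefSeq start are shown for the 3 most abundant hosts and for Snhg14, with runs of 5 or more C or T in capitals. The Gas5 entry is its second start, as its first has no such run, and Snhg6 had no entry. The RefSeq starts lie 593 bases for Snhg8, 532 bases for Snhg1 and 943 bases for Gas5 from the start of the annotated canonical transcript.
Gas5: CTTTCggagctgtgcggcat
Snhg8: CTCTTTggctgcgatccgcc
Snhg1: ctcaTTTTTCCTTgttcggg
Snhg14: agtcaagtcagtgcagcagg

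Over the 15 start windows of snoRNA hosts, those outside the list included, 10 had such a run within 20 bases (66.7%), against 32.8% of all 32851 windows. These shares were not tested against each other. The host windows are not independent, as some hosts have overlapping windows that hold the same run. Snhg14, the host that was called lower, had none, but its RefSeq start lies 471885 bases from the start of the annotated canonical transcript. Zfas1, Snhg20 and 2410006H16Rik, which were not called, had none either. AI506816, also lower in mean but not called, had a run of 7. Of the proteins that assemble on snoRNAs, 0 of 8 had a p under 0.05, and log2 fold changes lay between -0.09 and 0.16, with Fbl, the methyltransferase, at 0.04 ± 0.08 and Nop10 at 0.16 ± 0.09. Of the nonsense-mediated decay factors, 0 of 10 had a p under 0.05, and the range was -0.16 to 0.12.

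Imprinted lncRNAs and those of X inactivation formed a small list, with 4 of 15 listed genes among the 170. Of these, 3 had a p under 0.05 and all 3 were lower, Snhg14 as given above, Firre and Jpx, but only Snhg14 was called, a list of too few genes to set against the 3.13% called and 11.9% with p under 0.05 of all genes tested. Firre, an X-linked RNA that organises nuclear contacts, was at 31.5, 36.7 and 26.6 CPM with vehicle and 16.9, 22.8 and 25.7 CPM with esculetin. The third libraries were close, and the log2 fold change was -0.54 ± 0.16 (SE, adjusted p = 0.252 in edgeR). Jpx, an activator of Xist in female cells, was at 3.20, 4.08 and 4.41 CPM with vehicle and 2.98, 2.54 and 2.90 CPM with esculetin, a log2 fold change of -0.47 ± 0.19. The esculetin means of Jpx and Snhg14, 2.81 and 2.83 CPM, were under 3 CPM. Both thus met the level rule through the vehicle group, where they were higher. Peg13, a paternally expressed gene inside Trappc9, had 0.28 ± 0.20. Listed genes under the limit for inclusion went both ways. Ftx, at 2.93 CPM, had a log2 fold change of -0.35 ± 0.25. Meg3, at 1.23 CPM, had 0.85 ± 0.38 with an unadjusted p of 0.04995 in edgeR, just within the rule for a call, and its groups overlapped. Kcnq1ot1 and Rian had -0.65 ± 0.41 and 0.30 ± 0.35. Over the 8 genes of the list that were tested at any level, the median log2 fold change was -0.41.

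The list of nuclear architecture RNAs and other studied lncRNAs held 25 names, of which 4, Malat1, Norad, Neat1 and Oip5os1, were among the 170. Of these, 2 had a p under 0.05, both lower and neither called, beside 11.9% with p under 0.05 over all genes tested. The paraspeckle proteins that assemble on Neat1 had a p under 0.05 in 0 of 12 genes of the list, with Rbm14 at a log2 fold change of 0.32 ± 0.15. Hnrnpk and Srsf1, the most abundant of them, had -0.11 ± 0.07 and -0.14 ± 0.08.

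Antisense partners of named genes, with symbols that end in os, were 11 of the 170. Of these, Hnf4aos was called, and Oip5os1 and Hand2os1 also had a p under 0.05. Over all genes tested, 3.13% were called and 11.9% had a p under 0.05. Hand2os1, opposite the mesenchymal factor Hand2, was at 5.99, 6.91 and 4.96 CPM with vehicle and 3.58, 4.53 and 4.60 CPM with esculetin. All esculetin libraries were lower, and the log2 fold change was -0.49 ± 0.18. Log2 fold changes of Brip1os, Hectd2os and Tbx3os1 were -0.01 ± 0.08, 0.38 ± 0.25 and -0.31 ± 0.23. Over the 11 genes the median log2 fold change was -0.05, beside -0.01 over all genes tested, and over the 48 tested genes of this list at any level it was 0.09.

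MicroRNA hosts were represented by Mir22hg, Dleu2 and Mir17hg, and none had a p under 0.05. Mir22hg was at 47.5 ± 6.04 CPM with vehicle and 44.3 ± 10.5 CPM with esculetin (SD, n = 3 each), and Dleu2 at 9.91 ± 1.17 CPM and 10.5 ± 1.04 CPM. Mir17hg was at 4.77, 5.09 and 3.10 CPM and at 2.89, 2.85 and 3.61 CPM, a log2 fold change of -0.47 ± 0.22 (unadjusted p = 0.0610 in edgeR). The third vehicle library alone lay within the esculetin range.

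By the annotation, 10 of the 170 genes hold a microRNA gene on their strand, with 3 higher and 7 lower in mean. Gm29966 alone was called, beside 3.13% of all genes tested. The mature RNAs of some are shown, with the seed (bases 2 to 8) in capitals, because they tell which target families the hosts carry. The level of a host RNA does not give that of its mature microRNA, which this assay does not read. Shared seeds are AGCAGCA in the pair from Dleu2, GAGGUAG in the let-7 trio from 6720427I07Rik, AGCACCA in the pair from A330023F24Rik, and AAAGUGC in the pair from Mir17hg.
miR-22-3p from Mir22hg: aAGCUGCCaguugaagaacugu
miR-15a-5p from Dleu2: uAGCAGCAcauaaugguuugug
miR-16-5p from Dleu2: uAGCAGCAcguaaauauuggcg
let-7a-5p from 6720427I07Rik: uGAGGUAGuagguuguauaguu
let-7d-5p from 6720427I07Rik: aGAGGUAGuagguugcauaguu
let-7f-5p from 6720427I07Rik: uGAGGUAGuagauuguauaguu
miR-29b-3p from A330023F24Rik: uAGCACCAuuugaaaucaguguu
miR-29c-3p from A330023F24Rik: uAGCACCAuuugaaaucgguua
miR-17-5p from Mir17hg: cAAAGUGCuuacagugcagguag
miR-20a-5p from Mir17hg: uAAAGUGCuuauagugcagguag

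The let-7 host 6720427I07Rik had a log2 fold change of -0.19 ± 0.21, and the host of miR-29b and miR-29c, A330023F24Rik, one of 0.06 ± 0.21. Of 9 microRNA processing proteins, 2 had a p under 0.05, beside 11.9% of all genes tested, and both were lower without being called. Dicer1, which cuts the hairpins, was at 42.9, 43.8 and 41.2 CPM with vehicle and 38.9, 37.5 and 35.5 CPM with esculetin (log2 fold change -0.19 ± 0.08). Ago4, an Argonaute that carries the mature RNA, was at 5.04 ± 0.51 CPM against 3.48 ± 0.68 CPM (SD, n = 3 each), a log2 fold change of -0.53 ± 0.19. Both had groups that did not overlap, as had 17.4% of all genes tested.

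Most of the lncRNA genes lie close to protein-coding genes. By position, 87 overlap a protein-coding gene on the opposite strand, and some of these overlap one on the same strand too. Of the others, 6 overlap one on the same strand, 8 start within 2000 bases of a gene that points away from them, and 69 are intergenic. Called were 6 of the antisense genes (6.90%), 2 of the intergenic (2.90%), 1 of the sense and 0 of the divergent genes, beside 3.13% of all genes tested, and the position classes were not tested against each other. In 154 pairs the nearest protein-coding gene was tested too, and the log2 fold changes of a pair had the same sign in 81. Across these pairs, which share their libraries, Pearson's r was 0.08 and Spearman's rho 0.10. Pairs are not independent replicates.

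Gm15889 and its neighbour Herpud1, a gene of the endoplasmic reticulum stress response, were a pair with similar values, picked after they were seen. Gm15889 was at 4.09, 5.37 and 5.65 CPM with vehicle and 6.75, 5.62 and 9.58 CPM with esculetin, and the groups overlapped slightly. Both genes had a log2 fold change of 0.54, with an SE of 0.22 for Gm15889 and 0.13 for Herpud1. The lncRNA genes were also shorter and had fewer exons than protein-coding genes of at least 3 CPM. The median canonical transcript was 1342 bases with 3 exons, against 3509 bases with 9 exons, and 19 of the 170 (11.2%) had 1 exon, against 1.42%.

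**Figure D5:**
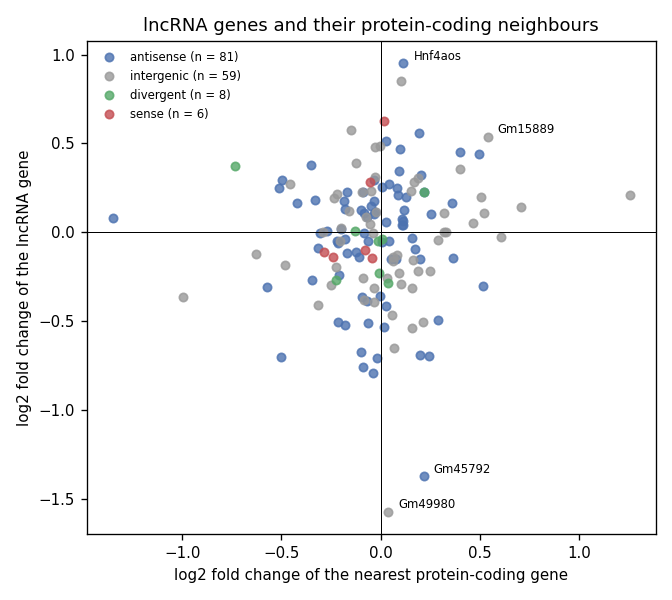
Log2 fold change of each lncRNA gene (vertical axis) against that of its nearest protein-coding gene (horizontal axis) for 154 pairs with both tested, coloured by position. Points spread around 0 in all directions, with the same sign in 81 of 154 pairs, and Gm45792 and Gm49980 lie far below neighbours that changed little.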

How the data were processed

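Liver RNA from 3 vehicle and 3 esculetin libraries was sequenced as 150-base read pairs. Per the submitters' processing notes, HISAT2 2.2.1 placed the reads on GRCm39 and featureCounts assigned them to genes. The deposited values are raw gene counts. Which annotation release and strand setting were used, and what became of multi-mapping reads, is not given in the sources used here. GENCODE held 54749 of the 55357 gene identifiers and gave biotype, position and overlaps. The members and lists were chosen with earlier results of these data known.

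Genes were kept with filterByExpr, scaled with TMM and, in edgeR 4.0.16 under R 4.3.3, tested by quasi-likelihood F-tests without covariates, with Benjamini-Hochberg adjustment over the 14433 genes tested. The procedure was tested on simulated data. CPM in the text are TMM-scaled, except that the selection used CPM of the column total, with a mean of at least 3. The unadjusted p under 0.05 with a fold change over 1.5 follows the thresholds of the study. The SE is the log2 fold change divided by the root of the F statistic. Each library pools 2 mice, so the p-values measure spread between pools. A count of 3 corresponds to 0.0859 to 0.107 CPM, so depth did not limit detection of the 170 genes, but at 3 CPM counting error adds to the spread.

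Genes named are the 12 highest in CPM, called members whose groups do not overlap with their nearest protein-coding gene, members of each list with p under 0.05 and up to 4 more by level, 3 genes on each side of the limit, and partner proteins with p under 0.05 or else the 2 most abundant. Others were named after their values were seen. Alternatives were other scalings (DESeq2 size factors, total counts), DESeq2 1.42.0, limma-voom (limma 3.58.1), other filters, level limits and fold thresholds, a replicate block, members without exon overlap and each library left out. Promoter and microRNA sequences are from RefSeq tables of GRCm38.p6, and the printed start windows each matched GRCm39 exactly at 1 place.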

Additional observations from a re-analysis of the deposited data

How the results depend on the processing

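The count of 9 called lncRNA genes was 15 without a filter on low counts, where the cause was not tested. It was 21 of 300 genes at a limit of 1 CPM, 0 of 52 at 10 CPM, 2 of 35 among genes that share no exon base, 3 above a fold of 2 and 31 with no fold threshold, as fewer or more genes are then eligible. Under the other scalings, DESeq2, limma-voom, a minimum of 10 counts and, chosen after seeing the data, the 82 genes without overlap of canonical exons, it was 6 to 11. The count with an adjusted p under 0.05, 0 in edgeR, was 6 with DESeq2 and 16 without a filter, and the cause was not tested here either. Leaving out 1 library gave 7 to 22 called genes and 0 to 1 with an adjusted p under 0.05, with median log2 fold changes from -0.07 to 0.01. The count was 19 without the third vehicle library and 22 without the third esculetin library. Hnf4aos, Gm45792, Gm49980 and Gm29966 were called in all 6 such fits. Snhg14 was not called without the first vehicle library, nor 4632404H12Rik without the first or second vehicle or the first esculetin library.

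The labels number the libraries 1 to 3 in each group. Same-numbered libraries did not deviate together (correlations of -0.069, -0.011 and 0.0027), so the numbers were not read as pairs. With the replicate block 9 lncRNA genes were called, 7 of them among the 9 without it, with A930033H14Rik and Gm17066 no longer called, and 1 gene, Gm45792, had an adjusted p under 0.05, with a median log2 fold change of -0.0040.

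Changes near 0 turned sign. With total counts Norad was at -0.018, and without a filter Brip1os was at 0.0061. Over the fits without 1 library, log2 fold changes ranged from -0.039 to 0.042 for Norad, -0.038 to 0.061 for Brip1os, -0.088 to 0.010 for Gm20319, -0.010 to 0.16 for 1110038B12Rik, -0.13 to 0.36 for Gm30784, -0.010 to 0.16 for Dleu2, -0.023 to 0.23 for Snhg12, -0.41 to 0.034 for AI506816, -1.05 to 0.34 for Gm16348, -0.049 to 0.35 for Gm27252, -0.025 to 0.088 for Fbl, -0.28 to 0.065 for Mir22hg, -0.068 to 0.17 for Pik3c3, -0.066 to 0.038 for Ube2q1 and -0.070 to 0.12 for 9130016M20Rik.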
